A study of Mus musculus with 9 samples.

Results

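The genes described here are the enzymes of glycolysis and the carriers that bring glucose into the cell and take lactate out of it. They were chosen by name, as a list of 37 genes, with no threshold on a measured value. A probe was found for 36 of them among the 14564 genes that could be named on the array, 33 through a RefSeq accession or symbol and 3 through another accession or the gene's name in words. Pfkfb1 was not matched to a probe. Pgam1 and Pfkfb2 had 2 probes each, and the values given are those of the brighter one.

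RNA of 9 mouse cell samples was hybridised once each on single-colour Agilent arrays. The series set pluripotent-like (iPS) cells, made from fibroblasts by retroviral factors, beside embryonic stem (ES) cells and several fibroblast samples. The 4 iPS samples were 4 single clones from mouse embryonic fibroblasts (MEF) with a bgeo selection cassette knocked into Fbx15 (Fbxo15), kept under ES cell conditions with the drug G418 for 16 days. They were made with 4 factors (1 clone), 10 factors (1 clone) or 3 factors (2 clones, here numbered 1 and 2), and the labels name no factor. The ES cells were Fbx15-null and grown on STO feeder fibroblasts, and the MEF were Fbx15-null, from E13.5 embryos. The 3 other fibroblast-derived samples were knock-in MEF that received 4 factors but no G418 and gave no iPS clones (called unselected MEF), NIH3T3 fibroblasts transformed by a retrovirus for active HRas (HRasV12), and a line of wild-type MEF that immortalised spontaneously and then also received a retroviral vector (called the immortalised line). The labels do not say whether the clones are independent cultures; p-values therefore reflect the spread of these arrays, which may be technical.

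Glycolysis splits glucose into pyruvate in the cytosol. Glucose enters through the Slc2a carriers and is trapped as glucose phosphate by hexokinase, the phosphofructokinases commit it to breakdown, and the steps from aldolase to pyruvate kinase yield ATP. Pyruvate then either enters mitochondria, a step that Pdk1 restrains by inactivating pyruvate dehydrogenase, or is reduced to lactate, which leaves the cell through carriers such as Slc16a3 (MCT4). Pluripotent cells and transformed cells are both known for high glycolytic flux, and many of these genes are known targets of the hypoxia-inducible factor Hif1a and of Myc.

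Promoter sequence is shown for 3 genes called in the tests below and for the 2 carriers Slc2a1 and Slc16a3. Of the 3, Hk2 was called in the clones against all fibroblast-derived samples together. Aldoc and Pfkp were not called there, but were called against the single MEF array. The sequence was searched for ACGTG, the core of the site bound by hypoxia-inducible factors. Each run is the 300 bases from 250 before to 50 after the first listed transcript start in RefSeq, build GRCm38.p6, written 5′ to 3′ along the gene, with ACGTG on either strand (ACGTG or CACGT) in capitals. The windows are chr6:82774405-82774704 (minus strand) for Hk2, chr11:78322823-78323122 (plus strand) for Aldoc, chr13:6648722-6649021 (minus strand) for Pfkp, chr4:119108495-119108794 (plus strand) for Slc2a1 and chr11:120948817-120949116 (plus strand) for Slc16a3.
Hk2: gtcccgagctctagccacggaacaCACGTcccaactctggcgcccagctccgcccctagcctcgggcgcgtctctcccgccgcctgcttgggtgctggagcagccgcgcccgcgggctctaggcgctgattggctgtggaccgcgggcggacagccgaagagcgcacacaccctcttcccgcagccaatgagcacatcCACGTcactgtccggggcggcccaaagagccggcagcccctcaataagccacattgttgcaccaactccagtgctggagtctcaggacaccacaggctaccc
Aldoc: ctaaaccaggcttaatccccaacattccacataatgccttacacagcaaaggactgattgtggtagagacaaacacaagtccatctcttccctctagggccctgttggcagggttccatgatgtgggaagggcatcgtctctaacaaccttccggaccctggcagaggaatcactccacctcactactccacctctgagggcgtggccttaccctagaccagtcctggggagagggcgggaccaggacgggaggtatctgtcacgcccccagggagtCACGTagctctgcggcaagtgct
Pfkp: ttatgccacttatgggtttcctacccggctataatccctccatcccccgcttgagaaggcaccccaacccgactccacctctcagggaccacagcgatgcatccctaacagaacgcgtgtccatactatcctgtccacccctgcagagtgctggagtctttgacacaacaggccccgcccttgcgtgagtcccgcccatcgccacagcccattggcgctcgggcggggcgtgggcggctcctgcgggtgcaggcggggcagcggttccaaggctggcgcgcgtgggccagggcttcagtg
Slc2a1: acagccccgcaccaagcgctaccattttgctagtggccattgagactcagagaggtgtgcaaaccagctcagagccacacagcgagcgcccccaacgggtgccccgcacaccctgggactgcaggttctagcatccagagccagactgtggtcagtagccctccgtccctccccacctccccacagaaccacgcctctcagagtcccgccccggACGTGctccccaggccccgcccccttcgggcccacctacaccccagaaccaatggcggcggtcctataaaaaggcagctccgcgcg
Slc16a3: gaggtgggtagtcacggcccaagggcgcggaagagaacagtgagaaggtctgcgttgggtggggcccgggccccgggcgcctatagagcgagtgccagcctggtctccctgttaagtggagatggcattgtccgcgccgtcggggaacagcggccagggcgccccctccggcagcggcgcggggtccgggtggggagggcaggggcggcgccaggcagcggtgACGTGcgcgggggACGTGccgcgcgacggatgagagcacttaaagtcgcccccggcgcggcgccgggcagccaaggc

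Hk2 and Slc16a3 held the motif 2 times, Aldoc and Slc2a1 1 time, and Pfkp 0 times. The window of the second listed Aldoc start, not shown, held it 0 times, so the Aldoc match depends on the start taken. Over the 34 members with a window in the RefSeq table, 13 (38.2%) held at least 1 match, against 19.7% of the windows of all 27025 genes. The E-box CACGTG, which Myc and Max bind, contains the same letters and was not counted apart. A match says only that these letters are in the window.

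Levels below are log2 of the background-subtracted signal over the 75th percentile of the same array, so 0 is the 75th percentile, and they compare samples for 1 probe, not genes with each other. Between 52.4% and 59.6% of spots on an array were well above background by the scanner software's own rule, and values under 3.63% of the 75th percentile were set to a floor of -4.78, where they have no order. Clones are given in the order 4-factor, 10-factor, 3-factor 1 and 3-factor 2. Cell identity was checked with 8 pluripotency and 8 fibroblast markers. The pluripotency markers summed to 449 times the 75th percentile in ES, to between 4.21 and 53.1 in the clones and to between 0.0653 and 0.684 in the fibroblast-derived samples. Nanog, Sox2 and Zfp42 were not well above background in either 3-factor clone, and Tdgf1 was in no sample. The fibroblast markers summed to between 6.95 and 17.8 in the clones, 12.8 in ES and between 83.5 and 613 in the fibroblast-derived samples. By the scan times in the file headers, scan 1 held ES, MEF and the 4- and 10-factor clones, scan 2 both 3-factor clones, scan 3 the immortalised line and the NIH3T3 HRasV12 cells, and scan 4 unselected MEF.

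Of the 36 genes, 23 were well above background on all 9 arrays, 9 on some and 4 on none. The 4 never detected were Hk3, a hexokinase of blood cells, Pklr, the pyruvate kinase of liver and red cells, Pgk2, the phosphoglycerate kinase of sperm, and Slc2a2, the glucose carrier of liver and pancreatic islets. By step, the probe was above background on every array for 1 of 5 carriers, 2 of 4 hexokinases, 7 of 9 enzymes acting on fructose phosphates or the Gpi1 step before them, 9 of 12 enzymes from aldolase to enolase and 4 of 6 genes of pyruvate and lactate.

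**Figure D1:**
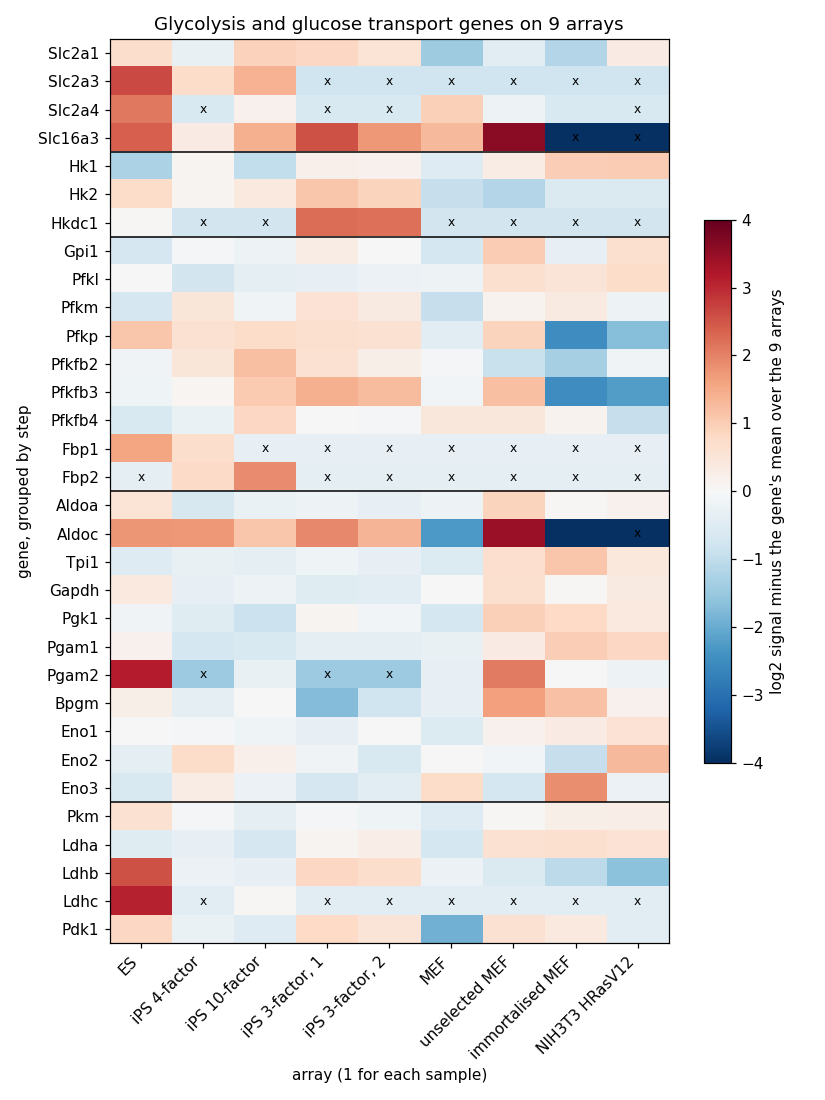
Each cell is the log2 signal of 1 gene on 1 array minus that gene's mean over the 9 arrays (colour, limited to -4 and 4), with genes in rows grouped by step and arrays in columns; a cross marks a probe not well above background there. Slc16a3 and Aldoc had the widest colour range, from crossed cells in NIH3T3 HRasV12 cells to 5.50 and 3.21 on the log2 scale in unselected MEF, while Eno1 lay within 4.41 to 5.55.

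Among the carriers, Slc2a1 (GLUT1), the main glucose carrier of growing cells, was lowest in MEF. Slc2a1 was at 4.93 in ES, 3.94, 5.16, 5.07 and 4.79 in the clones, 2.80 in MEF, 3.82 in unselected MEF, 3.06 in the immortalised line and 4.56 in NIH3T3 HRasV12 cells. The 10-factor clone and 3-factor clone 1 stood above ES, the other clones below it, and NIH3T3 HRasV12 cells lay within the range of the clones. Slc2a3 (GLUT3), a carrier with high affinity for glucose, was dim. Slc2a3 was measured in ES (-1.33), the 4-factor clone (-3.25) and the 10-factor clone (-2.58), and not well above background in the other 6 samples. It was thus measured in ES and in the clones of scan 1, the samples in which 6 or 7 of the 8 pluripotency markers were above background, and in no fibroblast-derived sample. Slc2a4 was measured in ES (-2.07), the 10-factor clone (-3.99), MEF (-3.22), unselected MEF (-4.39) and the immortalised line (-4.78), and not well above background in the other 4 samples. Slc2a4 (GLUT4), the insulin-regulated carrier of muscle and fat, was dim everywhere and at the floor in the immortalised line, with its highest level in ES. Slc16a3 was at 4.26 in ES, 2.19, 3.30, 4.42 and 3.60 in the clones, 3.18 in MEF and 5.50 in unselected MEF, and not well above background in the immortalised line or NIH3T3 HRasV12 cells. Slc16a3, the exporter of lactate, was bright in 7 samples and not measurable in the 2 established fibroblast lines, which also shared a scan.

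Of the hexokinases, Hk2, the inducible mitochondria-bound form, separated the clones from fibroblasts. Hk2 was at 3.41 in ES, 2.79, 3.06, 3.79 and 3.58 in the clones, 1.77 in MEF, 1.51 in unselected MEF, 2.09 in the immortalised line and 2.12 in NIH3T3 HRasV12 cells. All 4 clones and ES lay above all 4 fibroblast-derived samples. Hk1, the form found in most tissues, was dim, at -3.72 to -1.45, with its lowest level in ES and its highest in the NIH3T3 HRasV12 cells. Hkdc1 was measured in ES (-3.99), 3-factor clone 1 (-1.80) and 3-factor clone 2 (-1.82), and not well above background in the other 6 samples. Hkdc1, a less studied hexokinase, was therefore measured in both 3-factor clones, at nearly equal levels, and in ES.

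The enzymes on fructose phosphates differed by isoform. Pfkp, the platelet form of phosphofructokinase, was nearly level across the clones. Pfkp was at 1.55 in ES, 1.05, 1.18, 1.09 and 1.04 in the clones, 0.01 in MEF, 1.31 in unselected MEF, -2.06 in the immortalised line and -1.28 in NIH3T3 HRasV12 cells. Unselected MEF reached the level of the clones, MEF stood below, and both established lines were lowest. The liver form Pfkl ranged over 0.08 to 1.53 and the muscle form Pfkm over 0.52 to 2.01. Pfkl was lower in every clone than in every fibroblast-derived sample. Pfkfb3, which makes fructose 2,6-bisphosphate, the activator of phosphofructokinase, was also lowest in the established lines. Pfkfb3 was at -0.21 in ES, 0.06, 1.02, 1.39 and 1.25 in the clones, -0.14 in MEF, 1.19 in unselected MEF, -2.52 in the immortalised line and -2.27 in NIH3T3 HRasV12 cells. The 3-factor clones were highest, with unselected MEF and the 10-factor clone close below. Pfkfb2 was at -3.60 in ES, -2.95, -2.25, -2.83 and -3.23 in the clones, -3.49 in MEF, -4.33 in unselected MEF, -4.78 in the immortalised line and -3.58 in NIH3T3 HRasV12 cells. Pfkfb2, a heart form of the same enzyme, was dim and sat at the floor in the immortalised line, and its second probe was not above background on any array. Pfkfb4 was at -1.30 in ES, -0.93, 0.15, -0.68 and -0.77 in the clones, -0.22 in MEF, -0.21 in unselected MEF, -0.53 in the immortalised line and -1.60 in NIH3T3 HRasV12 cells. Pfkfb4 was lowest in the NIH3T3 HRasV12 cells and highest in the 10-factor clone. Fbp1 was measured in ES (-2.89) and the 4-factor clone (-3.77), and not well above background in the other 7 samples. Fbp2 was measured only in the 4-factor clone (-3.62) and the 10-factor clone (-2.51). Fbp1 and Fbp2 are the fructose bisphosphatases of gluconeogenesis, which run the step backwards. Gpi1, which turns glucose 6-phosphate into fructose 6-phosphate, was bright in all samples, at 5.86 to 7.59, and highest in unselected MEF.

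From aldolase to enolase, Aldoc, the aldolase of brain, had the largest spread. Aldoc was at 1.5 in ES, 1.46, 0.86, 1.66 and 1.09 in the clones, -2.56 in MEF, 3.21 in unselected MEF and -4.78 in the immortalised line, and not well above background in NIH3T3 HRasV12 cells. In the immortalised line it was called above background but lay at the floor, so ES, the clones and unselected MEF were all above MEF and both established lines. The 6 neural markers summed to 8.15 times the 75th percentile in ES, 3.44 to 13.2 in the clones, 2.40 in MEF, 2.44 in unselected MEF, 0.0838 in the immortalised line and 0.446 in NIH3T3 HRasV12 cells. Map2, Syp and Snap25 were above background in none of the 9 samples, and the part of these markers in the Aldoc level was not tested. Pgam2 was measured in ES (-0.20), the 10-factor clone (-3.64), MEF (-3.66), unselected MEF (-1.26), the immortalised line (-3.31) and NIH3T3 HRasV12 cells (-3.52), and not well above background in the other 3 samples. Pgam2, the muscle form of phosphoglycerate mutase, was highest in ES and second in unselected MEF. The 5 muscle markers with a probe summed to 0.254 in ES, 3.15 in unselected MEF and 3.98 in MEF, and Myog and Ckm were above background in none of the 9 samples. Bpgm was at -1.59 in ES, -2.22, -1.86, -3.57 and -2.63 in the clones, -2.15 in MEF, -0.18 in unselected MEF, -0.67 in the immortalised line and -1.65 in NIH3T3 HRasV12 cells. Bpgm, which makes 2,3-bisphosphoglycerate, was highest in unselected MEF and lowest in 3-factor clone 1. Eno3 was at 0.88 in ES, 1.79, 1.25, 0.82 and 1.05 in the clones, 2.22 in MEF, 0.80 in unselected MEF, 3.36 in the immortalised line and 1.25 in NIH3T3 HRasV12 cells. Eno3, the muscle enolase, stood out in the immortalised line. Gapdh was at 8.39 in ES, 7.67, 7.78, 7.52 and 7.55 in the clones, 8.0 in MEF, 8.64 in unselected MEF, 8.04 in the immortalised line and 8.36 in NIH3T3 HRasV12 cells. Gapdh, the dehydrogenase often used as a reference gene, was higher in each fibroblast-derived sample than in each clone, and its spots were saturated in ES, the immortalised line and NIH3T3 HRasV12 cells, so those 3 values are lower limits. The remaining detected enzymes had these ranges over the 9 arrays: Aldoa 7.11 to 8.64 (saturated in ES, the immortalised line and unselected MEF), Tpi1 5.15 to 6.81, Pgk1 5.86 to 7.67, Pgam1 5.27 to 6.96, Eno1 4.41 to 5.55 and the neuronal enolase Eno2 -2.0 to 0.22.

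At the pyruvate and lactate end, Ldhb, the lactate dehydrogenase form that favours making pyruvate, was far brighter in ES than elsewhere. Ldhb was at 5.86 in ES, 3.09, 2.98, 4.13 and 4.01 in the clones, 3.08 in MEF, 2.72 in unselected MEF, 2.25 in the immortalised line and 1.67 in NIH3T3 HRasV12 cells. The 3-factor clones were next, the other clones were at the level of MEF, and the established lines were lowest. Ldha, the form that favours making lactate, ranged over 5.0 to 6.35, with MEF lowest and the immortalised line highest. Ldhc was measured in ES (-1.26) and the 10-factor clone (-4.31), and not well above background in the other 7 samples. Ldhc is the testis form, and its level in the 10-factor clone was near the floor. Of the 5 germ cell markers with a probe, 3 were above background in each of these samples, with Tnp1 and Prm2 above in neither. The markers summed to 1.31 times the 75th percentile in ES, 0.311 in the 10-factor clone and between 0.0471 and 0.223 elsewhere, and their part in the Ldhc level was not tested. Pkm was at 5.31 in ES, 4.66, 4.36, 4.67 and 4.53 in the clones, 4.18 in MEF, 4.76 in unselected MEF, 4.95 in the immortalised line and 4.97 in NIH3T3 HRasV12 cells. Pkm, the main pyruvate kinase outside liver and red cells, was highest in ES and lowest in MEF. Pdk1 was at 1.66 in ES, 0.55, 0.29, 1.63 and 1.33 in the clones, -1.1 in MEF, 1.42 in unselected MEF, 1.22 in the immortalised line and 0.36 in NIH3T3 HRasV12 cells. Pdk1 in MEF was below every other sample by more than 1 unit.

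**Figure D2:**
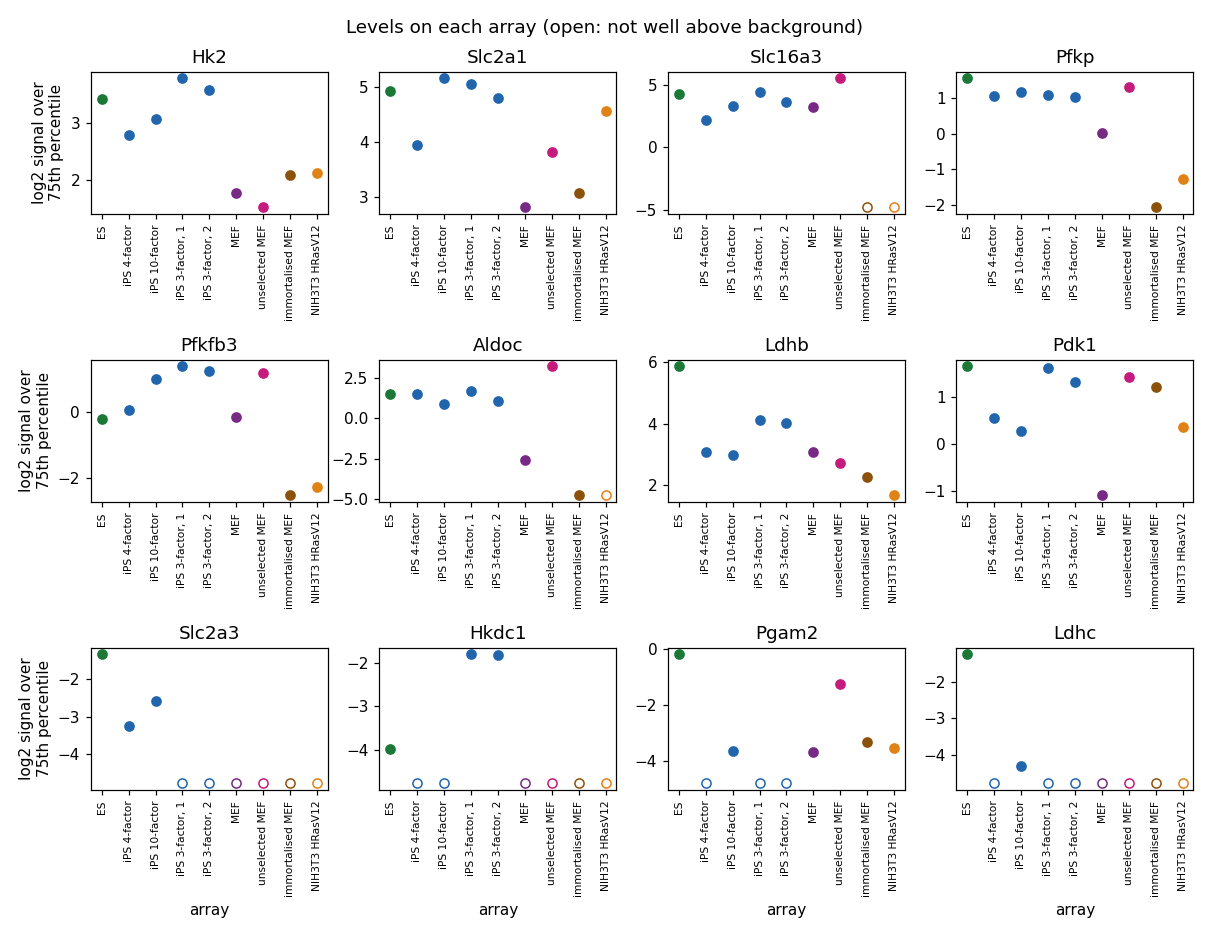
Each panel shows 1 gene, with 1 point for each of the 9 arrays on a log2 scale over the array's 75th percentile (vertical axes differ between panels); open points are not well above background and sit at or near the floor. In the Hk2 panel the clones and ES all lie above the fibroblast-derived samples, and in the Slc16a3 panel the established lines lie far below the rest. In the Aldoc panel the established lines are lowest and MEF is next (-2.56), all below the clones, ES and unselected MEF.

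The 4 clones were first compared with the 4 fibroblast-derived samples, which asks what the clones share against cells that are not pluripotent-like. Hk2 rose in the clones and was the only member to pass, at 3.30 ± 0.456 (SD, n = 4) against 1.87 ± 0.287 (SD, n = 4), a log2 difference of 1.43 ± 0.28 (SE) or 2.7-fold (limma, adjusted p = 0.0202). With 1 of 30 tested members called, the members stood near the background of all tested probes, of which 4.2% were higher and 4.73% lower, and the members' median difference of -0.09 lay close to the 0.02 of all probes. At an unadjusted p under 0.05 there were 10 of 30 members, beside 25.9% of all tested probes. The call for Hk2 was lost without 3-factor clone 1 or without 3-factor clone 2, within scan 1, with scan as a block, with the 3-factor clones averaged and with arrays scaled to the median; over all 17 alternatives the difference stayed between 1.1 and 1.6. The summed fibroblast markers differ between these groups as given above, and their part in this difference was not tested. In these bulk samples, fewer cells of a type and less RNA per cell cannot be told apart.

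The groups did not overlap for 5 members. Hk2 and Pfkfb2 were higher in every clone, beside 8.71% of all probes, and Pfkl, Pgam1 and Gapdh were lower in every clone, beside 9.72%. Pfkfb2 differed by 1.23 ± 0.36 (adjusted p = 0.0725), Pfkl by -0.84 ± 0.26 (adjusted p = 0.0857), Pgam1 by -0.97 ± 0.30 (adjusted p = 0.0878) and Gapdh by -0.63 ± 0.21 (adjusted p = 0.103), none past the limma threshold of 0.05. Of the fibroblast-derived Gapdh spots, 2 of 4 were saturated. The second Pgam1 probe gave -1.16 ± 0.47. Several other members had a mean difference above 1 that did not pass the test. Slc16a3 differed by 3.60 ± 2.35, Aldoc by 3.50 ± 1.64, Pfkfb3 by 1.86 ± 0.82, Pfkp by 1.59 ± 0.66, Slc2a1 by 1.18 ± 0.45 and Ldhb by 1.12 ± 0.40, with adjusted p between 0.124 for Ldhb and 0.359 for Slc16a3. With scan as a block Aldoc (3.72) was called. In that fit the difference comes only from scan 1, as the 4- and 10-factor clones against the MEF array. Single fibroblast-derived samples changed these calls too. Without unselected MEF, Aldoc (5.31), Pfkp (2.20) and Pfkfb3 (2.57) were called beside Hk2. Without MEF, 4 members were called too, Hk2, Pfkl, Pgam1 and Tpi1.

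**Figure D3:**
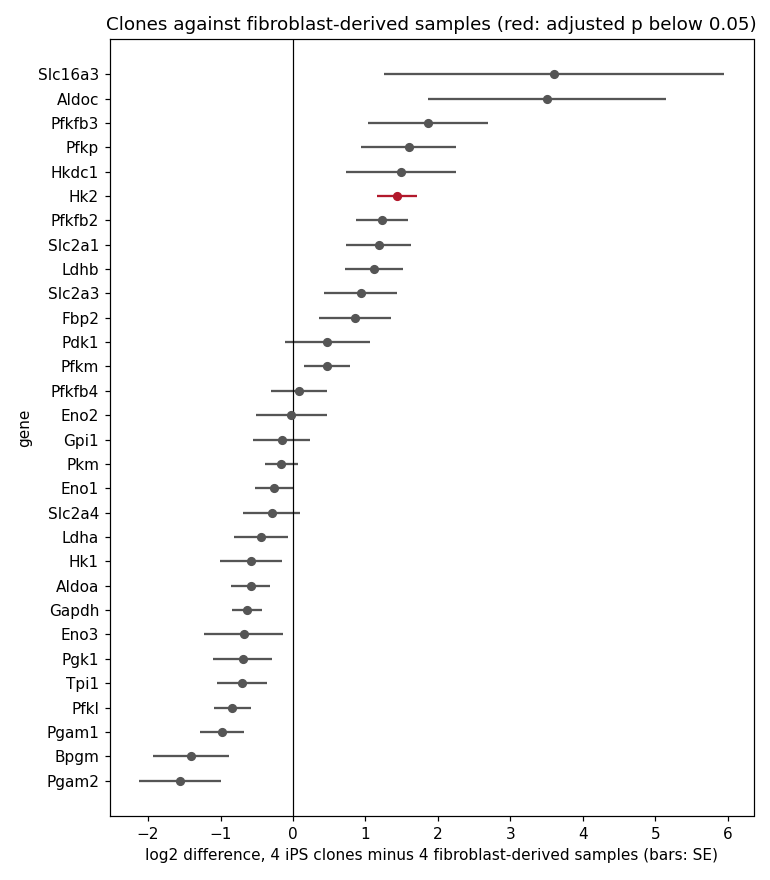
Points are the limma log2 difference of the 4 iPS clones minus the 4 fibroblast-derived samples for each of the 30 tested members, ordered by size, with bars of 1 SE; red marks an adjusted p below 0.05. Only Hk2, at 1.43, is red, while Slc16a3 and Aldoc lie farther from 0 with far wider bars.

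Against MEF alone, the cell type the clones came from, 2 of 30 tested members rose in the clones and 0 fell by limma, with 8 at an unadjusted p under 0.05, beside 33.4% of all tested probes at that p. Pfkp was at 1.09 ± 0.0616 (SD, n = 4) in the clones and 0.01 on the MEF array, a difference of 1.08 ± 0.09 or 2.11-fold (limma, adjusted p = 0.0112). Aldoc was at 1.27 ± 0.361 (SD, n = 4) against -2.56, a difference of 3.83 ± 0.36 or 14.2-fold (limma, adjusted p = 0.014). Of all tested probes 4.73% were higher and 9.32% lower. The lone MEF array is assumed here to vary like the clones; with the spread pooled over all fibroblast-derived samples, an alternative added after the data were seen, neither gene was called. Both calls also ended without 3-factor clone 1, without 3-factor clone 2, within scan 1 and with the 3-factor clones averaged. The members' median difference was 0.40 and that of all probes 0.04. Of the 30 tested members, 13 were above MEF in every clone, Pfkp and Aldoc among them, and 5 were below MEF in every clone. The 5 were Pfkl, Gapdh, Pgam1, Eno3 and Slc2a4, none of them called. Of these, Slc2a4 differed by -1.37 and was well above background in 1 of 4 clones. The share of all probes above or below MEF in every clone was not counted, so neither count can be set against a background. Members above MEF in every clone but not called included Pdk1 (2.05 ± 0.63, adjusted p = 0.119), Slc2a1 (1.94 ± 0.56, adjusted p = 0.105), Hk2 (1.54 ± 0.46, adjusted p = 0.112) and Pfkm (1.23 ± 0.33, adjusted p = 0.0919).

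Against ES, 4 of 32 tested members fell in the clones and 0 rose by limma, where 9.43% of all tested probes were lower and 4.06% higher. At an unadjusted p under 0.05 there were 12 members, beside 30.9% of all tested probes. The 4 were the testis lactate dehydrogenase Ldhc (-3.41 ± 0.25, limma adjusted p = 0.00634), the muscle mutase Pgam2 (-4.30 ± 0.57, adjusted p = 0.026), Slc2a4 (-2.52 ± 0.40, adjusted p = 0.0372) and Gapdh (-0.76 ± 0.14, adjusted p = 0.0475). Ldhc, Pgam2 and Slc2a4 were well above background in 1 of 4 clones, the 10-factor clone, so their fitted sizes and p-values depend on the floor. The ES spot for Gapdh was saturated, its difference was -0.34 with arrays scaled to the median, and its call held in 4 of 15 alternatives. Ldhc kept its call in 13 of 14 alternatives, Pgam2 in 7 and Slc2a4 in 6. The lone ES array is assumed to vary like the clones; with the spread pooled over the fibroblast-derived samples too, Ldhc and Pgam2 were called and Slc2a4 and Gapdh were not. Ldhb differed by -2.31 ± 0.60 without passing (adjusted p = 0.096), with ES above every clone. With scan as a block, a fit whose differences come from the 4- and 10-factor clones, Ldhb (-2.83) and Pgam1 (-0.82) were called lower in the clones. For Hk2, Slc2a1 and Aldoc the ES level lay within the range of the clones, with log2 differences of -0.11 ± 0.46, -0.19 ± 0.56 and -0.23 ± 0.37. This comparison uses the same 4 clone arrays as the comparisons with MEF and with the fibroblast-derived samples. ES grew on feeders, and fibroblast markers summed to a level in ES within the range of the clones.

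Among the clones, the 2 made with 3 factors were set against the clones made with 4 and 10 factors. No member passed by limma, where 0% of all probes were higher and 0.0148% lower, and 9 of 32 had an unadjusted p under 0.05, beside 22.7% of all tested probes. The 3-factor clones were scanned apart from the others, so factor number and scan cannot be told apart. Hkdc1 was at least 7.85-fold higher in the 3-factor clones (adjusted p = 0.0892), while Slc2a3 was at least 3.65-fold lower (adjusted p = 0.125) and Fbp2 at least 3.29-fold lower (adjusted p = 0.188). The other 6 with such a p were higher in the 3-factor clones: Pdk1 (1.06 ± 0.18, adjusted p = 0.133), Ldhb (1.03 ± 0.10, adjusted p = 0.107), Hk2 (0.75 ± 0.16, adjusted p = 0.155), Ldha (0.68 ± 0.17, adjusted p = 0.176), Pgk1 (0.67 ± 0.19, adjusted p = 0.193) and Pgam1 (0.30 ± 0.08, adjusted p = 0.196). For Hkdc1, Slc2a3 and Fbp2 the lower side sat wholly at the floor, so their p-values depend on the floor. The pairs did not overlap for 12 members higher and 6 lower in the 3-factor clones, beside 28.5% and 24.7% of all probes. The 3-factor clones also had the lower summed pluripotency markers of the 4 (4.38 and 4.21, against 11.8 and 53.1). These sums are linear, so the brightest markers weigh most. Dppa5a was at -3.55 and -3.01 in the 3-factor clones, against 2.84 and 5.60. Fbxo15 went the other way (1.35 and 1.05, against -0.55 and -0.46), and Pou5f1 was nearly level (0.80 and 0.98, against 1.11 and 1.14). The part of these markers in the differences was not tested.

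Between the 10-factor and the 4-factor clone, each on 1 array and so without a test, 5 of 31 measured members were at least 2-fold higher in the 10-factor clone and 2 lower, beside 9.07% and 5.68% of all probes. Slc2a1 was 2.33-fold, Slc16a3 2.15-fold, Fbp2 2.16-fold, Pfkfb4 2.12-fold and Pgam2 at least 2.21-fold higher. Hk1 was 2.14-fold and Fbp1 at least 2.02-fold lower. With arrays scaled to the median 1 member, Hk1, was past 2-fold.

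ES was compared with MEF as 1 array each. Of 31 measured members, 13 were at least 2-fold higher in ES and 2 lower, where 22.5% of all probes were higher and 19.7% lower, and the members' median difference was 0.57 against 0.09. All 4 detected carriers were among those higher in ES: Slc2a1 by 4.36-fold, Slc16a3 by 2.11-fold, Slc2a4 by 2.22-fold and Slc2a3 by at least 10.9-fold. Aldoc was 16.6-fold, Pgam2 11-fold, Ldhb 6.88-fold, Pdk1 6.79-fold, Hk2 3.13-fold, Pfkp 2.9-fold and Pkm 2.19-fold higher in ES, Ldhc at least 11.5-fold and Fbp1 at least 3.71-fold. Eno3 was 2.55-fold and Pfkfb4 2.11-fold higher in MEF. Of the main enzymes from aldolase to enolase, Tpi1, Pgk1, Pgam1 and Eno1 differed by less than 2-fold, between 0.02 and 0.57 on the log2 scale. Aldoa (0.77) and Gapdh (0.39) were saturated in ES, so their ES levels are lower limits.

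Unselected MEF, the knock-in fibroblasts that received 4 factors, showed higher levels than MEF in most parts of glycolysis. Of 27 measured members 14 were at least 2-fold higher and 2 lower, beside 15.9% and 15.1% of all probes, with a median difference of 1.02 against -0.01. Slc2a1 was 2.02-fold higher at glucose entry. Gpi1 was 3.34-fold, Pfkm 2.07-fold, Pfkp 2.46-fold and Pfkfb3 2.52-fold higher at the fructose phosphate steps. Aldoa was at least 2.14-fold (its spot was saturated), Aldoc 54.4-fold, Tpi1 2.3-fold, Pgk1 3.18-fold, Pgam2 5.28-fold and Bpgm 3.93-fold higher. At the lactate end Ldha was 2.52-fold, Pdk1 5.75-fold and Slc16a3 4.98-fold higher. Hk2, the only member called in the clones against the fibroblast-derived samples, was not among them, at 1.51 against 1.77 in MEF. Eno3 and Slc2a4 were lower. The count of 16 became 8 with normexp background correction and quantile normalization, which kept Gpi1, Pfkp, Pfkfb3, Aldoc, Bpgm, Pdk1, Slc16a3 and Eno3. Both arrays are single, and unselected MEF is also alone in its scan.

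On the same unselected MEF array, hypoxia-responsive genes outside glycolysis were high. In the list of glycolysis regulators and hypoxia targets, 14 of 21 measured genes were at least 2-fold above MEF and 0 below, beside 15.9% and 15.1% of all probes, with a median difference of 1.5 against -0.01 for all probes. Car9 was measured in unselected MEF (0.44) and the immortalised line (-2.07), and not well above background in the other 7 samples. Car9, a carbonic anhydrase widely used as a hypoxia marker, was thus measured in 2 samples. Egln3 was at 0.39 in ES, 1.16, 1.44, 2.40 and 1.60 in the clones, -1.05 in MEF, 3.73 in unselected MEF, 1.39 in the immortalised line and 1.44 in NIH3T3 HRasV12 cells. Bnip3 was at 3.09 in ES, 2.49, 1.65, 2.41 and 1.77 in the clones, 2.03 in MEF, 5.25 in unselected MEF, 3.61 in the immortalised line and 2.77 in NIH3T3 HRasV12 cells. Egln3, a prolyl hydroxylase of the hypoxia-inducible factors, and Bnip3, a mitochondrial protein of mitophagy, were both highest in unselected MEF. Of the 19 genes of this list above background on every array, 12 had their highest level there, beside 19.4% of all such probes. Of the 23 glycolysis members above background on every array 5 did (Gpi1, Aldoa, Gapdh, Pgk1 and Bpgm), close to that background. Culture oxygen, density and medium are not given in the labels, and the part of hypoxia-responsive expression in the glycolysis levels was not tested. The summed level of the macrophage markers was also highest here, at 2.59 against 2.02 in NIH3T3 HRasV12 cells and 0.569 in MEF. Of the 6 markers, 4 were above background here, and Ptprc and Itgam were so in no sample. Cd14 was highest in NIH3T3 HRasV12 cells (0.94, against -0.09 in unselected MEF). The part of these markers was not tested.

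NIH3T3 HRasV12 cells differed from MEF in both directions. Of 27 measured members 9 were at least 2-fold higher and 7 lower, beside 11.7% and 15.4% of all probes, again with 1 array each. Higher were Slc2a1 (3.38-fold), Hk1 (2.86-fold), Pdk1 (2.76-fold), Gpi1 (2.58-fold), Ldha (2.45-fold), Eno2 (2.43-fold), Eno1 (2.21-fold), Pgam1 (2.19-fold) and Pgk1 (2.11-fold). Lower were Slc16a3 by at least 249-fold, Aldoc by at least 4.67-fold, Slc2a4 by at least 2.96-fold, Pfkfb3 by 4.37-fold, Ldhb by 2.66-fold, Pfkfb4 by 2.59-fold and Pfkp by 2.44-fold. The cell lines differ in origin as well as in HRas, since NIH3T3 is an established line and the MEF come from embryos, so line and oncogene cannot be told apart. The count of 16 became 7 with normexp correction and quantile normalization, and scaling to the median moved the median of all probes in this comparison from 0.05 to 0.74.

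**Figure D4:**
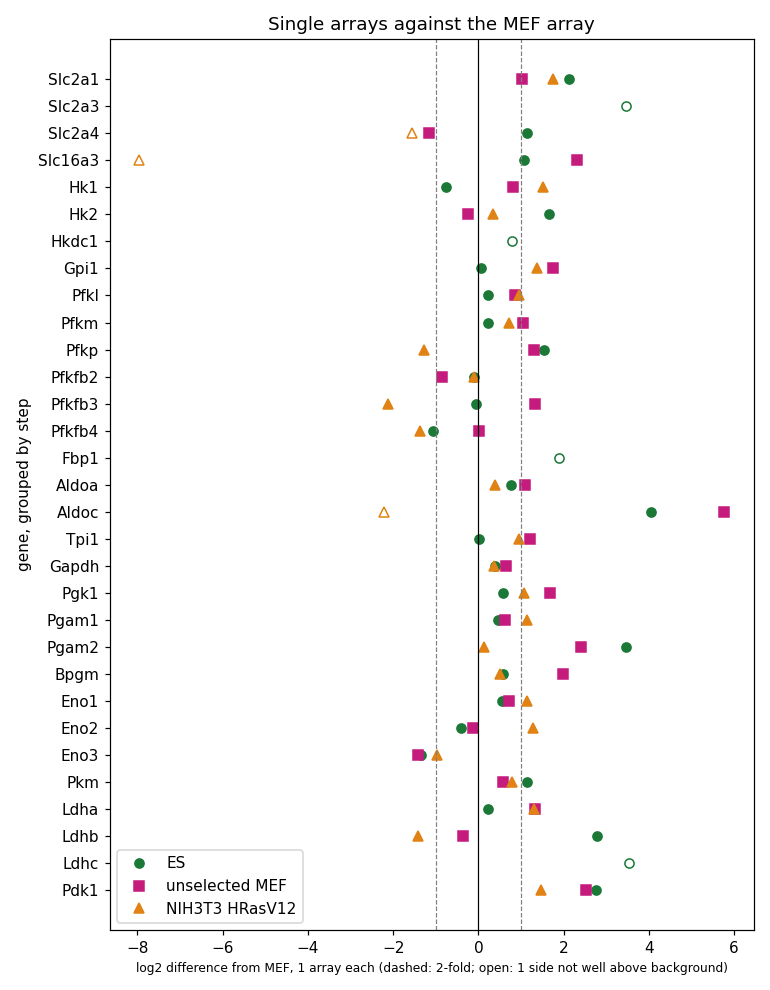
Log2 differences of ES (circles), unselected MEF (squares) and NIH3T3 HRasV12 cells (triangles) from the single MEF array, for members measured in the pair; dashed lines mark 2-fold and open symbols a side not well above background, where the difference is taken at the floor. Squares lie right of 0 for most genes shown, and the triangles of Slc16a3 (-7.96) and Pfkfb3 (-2.13) lie on the left.

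Neighbouring pathways were followed in 4 further lists. In the clones against the fibroblast-derived samples, 4.2% of all tested probes were higher and 4.73% lower, and 25.9% had an unadjusted p under 0.05. Of 26 tested genes of other glycolysis and pyruvate functions 1 rose, Pdhb, a subunit of pyruvate dehydrogenase (0.83 ± 0.21, adjusted p = 0.0492, limma). By limma 0 of 8 pentose phosphate genes and 0 of 18 tricarboxylic acid cycle genes passed (1 and 2 at an unadjusted p under 0.05). Of 23 regulators and hypoxia targets 4 fell. The 4 were the oxygen-sensing factor Hif1a (-1.53 ± 0.24, adjusted p = 0.00961), its target Vegfa, the vessel growth factor (-1.73 ± 0.34, adjusted p = 0.0204), the collagen prolyl hydroxylase P4ha2 (-2.64 ± 0.39, adjusted p = 0.00808) and Myc (-3.01 ± 0.52, adjusted p = 0.014). Medians were -0.01, -0.49, 0.17 and -0.45 in list order, against 0.02 for all probes. Whether the Myc probe also reads vector transcripts is not known. Against MEF alone, a comparison that shares the clone arrays and the MEF array with this one, Hif1a was at -1.46 ± 0.21, adjusted p = 0.0298, and P4ha2 at -2.80 ± 0.24, adjusted p = 0.0113, by limma. Vegfa and Myc were not called against MEF alone. P4ha2 hydroxylates collagen, and the fibroblast markers, collagens among them, differ between these groups as given above; their part was not tested.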

How the data were processed

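RNA of 9 samples was labelled with Cy3 and hybridised once each. The authors deposited the scanner output of Agilent Feature Extraction 8.5.1.1 (protocol GE1_22k_1205), per the file headers. Its processed signal was used, a linear intensity that the authors' program had already corrected for background, per the file headers. The program also decides which spots are well above background, with a multiple of 2.6. The deposited series table held this same intensity within 0.5% for 100% of the probes compared, so it is linear, uncentred and not a ratio. The sources used here give no build for the probes.

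The 736 control spots and the outlier spots (0 to 9 an array) were left out, which gave 20868 gene probes on 21318 spots. Each array was divided by its 75th percentile (between 167 and 300 units of intensity), floored at 3.63% of it, the highest over arrays of the lowest well-above signal, and put on the log2 scale. Probes were named through RefSeq accessions (14227 probes) or through the deposited descriptions, and 15000 had a name. Of several probes of a gene, the one brightest on average stands for it.

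A probe was tested when at least 50% of the arrays on either side had it well above background. Tests used limma 3.58.1 in R 4.3.3 (lmFit, eBayes; two-sided), with Benjamini-Hochberg adjustment over all tested probes and a threshold of 0.05. The code was tested on simulated data. Single arrays were compared by a 2-fold difference, with the brighter side well above background and no test. Where 1 side was nowhere above background, the fold is a bound against, per array, the lowest well-above signal or the probe's own. The members and lists were chosen with earlier results of these data known. Values in every sample are given for members past the threshold in any limma comparison and for those at least 2-fold apart between clones and fibroblast-derived samples or between ES and MEF, and ranges for the rest. The number of arrays limits the precision. What the vector in the immortalised line carries is not reported here. Scan, taken from the file headers, was treated as a batch. Other scalings, background corrections, filters and left-out samples were tried as alternatives.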

Additional observations from a re-analysis of the deposited data

Results flagged for a closer look

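Hk1 stood apart in 1 clone by Dixon's rule for 4 samples. The 10-factor clone was at -3.45 on the log2 scale, below the 4-factor clone (-2.35) and both 3-factor clones (-2.26 and -2.27). The rule was applied to 28 members, and chance flags about 1 in 20 groups.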

How the results depend on the processing

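No paired analysis was possible because the groups compared share fewer than 2 replicate numbers in the labels. Counts of called members depended on single samples and on how the spread was estimated. Leaving out 1 sample gave 0 to 4 calls for the clones against the fibroblast-derived samples (1 in the comparison as reported), 0 to 6 against MEF (2) and 1 to 8 against ES (4). Calls over all probes moved as well, from 413 to 1592 (1156 as reported), from 318 to 1896 (1834) and from 475 to 2083 (1783). The highest member counts against MEF and ES came without the 10-factor clone, and the lowest without either 3-factor clone. Within scan 1 all 3 comparisons gave 0 called members, and 0 of all probes were called. Averaging the 3-factor clones gave 0, 0 and 1. Scaling to the median gave 0 calls against the fibroblast-derived samples and 1 member past 2-fold between the 10- and 4-factor clones (7). Pooling the spread with the other fibroblast-derived samples, added after the data were seen, gave 0 against MEF and 2 against ES. Testing all probes gave 1 against ES and 1 (Hkdc1) between 3-factor and other clones, and testing those above background on all arrays gave 0 against ES. Normexp with quantile normalization gave 8 members past 2-fold for unselected MEF (16), 7 for NIH3T3 HRasV12 cells (16) and 2 between the 10- and 4-factor clones. With scan as a block, differences come only from the 4- and 10-factor clones against the MEF or the ES array, all in scan 1. The 3-factor clones, alone in their scan, give no difference. Aldoc was then called against the fibroblast-derived samples, and Ldhb and Pgam1 against ES. Hkdc1 in the clones against ES turned from 0.69 (not called) to -0.79 (called by limma). Scaling to the median moved the median of all probes from 0.02 to -0.27 against the fibroblast-derived samples, from -0.07 to 0.27 against ES, from -0.01 to 0.22 between the clones, from 0.09 to -0.18 for ES against MEF, from 0.02 to -0.18 between the 10- and 4-factor clones and from 0.05 to 0.74 for NIH3T3 HRasV12 cells; against the fibroblast-derived samples it left 285 of 979 called probes higher, in place of 544 higher and 612 lower. Other causes were not tested. Over the values of single members under every alternative, 1675 kept their side of the threshold, 43 fell short of it, 27 passed it and 1 reversed. The 1675 include members called in neither fit, so they do not measure how stable the calls were. Calls were kept in 11 of 17 alternatives for Hk2, and in 10 of 15 for both Pfkp and Aldoc. Against ES they were kept in 4 of 15 for Gapdh, 13 of 14 for Ldhc, 7 of 14 for Pgam2 and 6 of 14 for Slc2a4. A change of direction was counted only where the member was called in the comparison as reported or in the alternative. Signal near background limits Ldhc, Pgam2, Slc2a4, Slc2a3, Fbp1, Fbp2, Hkdc1, Slc2a5 and Mycn, and saturation limits Aldoa and Gapdh.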

Other observations

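Among other genes of glucose metabolism, a few were called in the clones against MEF or ES, in both directions. Each call rests on the lone MEF or ES array, and its stability under the alternatives is not given here. Calls over all probes in both comparisons fell without either 3-factor clone. Against MEF, Pdhb rose (1.25 ± 0.16, adjusted p = 0.0258, limma) and H6pd, the glucose 6-phosphate dehydrogenase of the endoplasmic reticulum, fell (-1.64 ± 0.28, adjusted p = 0.0412). Slc2a10, a further sugar carrier, was at least 6.45-fold lower in the clones (limma adjusted p = 0.000854), since it was measured in MEF and in no clone. All 4 clones sat at the floor for Slc2a10, so its p-value rests on no measured spread. Mxi1, a Max partner that opposes Myc, rose against MEF (1.80 ± 0.21, adjusted p = 0.0199) and against ES (1.16 ± 0.20, adjusted p = 0.0455). Also against ES, G6pdx, which feeds glucose into the pentose phosphate pathway, rose (0.69 ± 0.12, adjusted p = 0.0459), as did Mpc2, a subunit of the mitochondrial pyruvate carrier (1.05 ± 0.19, adjusted p = 0.0473), and Pck2, the mitochondrial phosphoenolpyruvate carboxykinase, by at least 2.89-fold (limma adjusted p = 0.018). The fructose carrier Slc2a5 fell (-3.48 ± 0.59, adjusted p = 0.0423), as did Rpe, of the pentose phosphate pathway (-0.82 ± 0.14, adjusted p = 0.0433), and Mycn (-2.0 ± 0.09, adjusted p = 0.00234). Slc2a5 was well above background in 2 of 4 clones and Mycn in 1 of 4, so both fitted sizes and both p-values depend on the floor. None of the 18 tricarboxylic acid cycle genes passed by limma in either comparison (2 against MEF and 0 against ES at an unadjusted p under 0.05). Of all tested probes, 33.4% against MEF and 30.9% against ES had such a p. The shares called were 4.73% higher and 9.32% lower against MEF, and 4.06% higher and 9.43% lower against ES.

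In unselected MEF, Bsg, the chaperone that carries lactate exporters to the cell surface, was at 3.44 on the log2 scale, against 1.27 in MEF and 0.74 to 1.99 in the other 7 samples. Ndrg1 (3.65) and Ddit4 (5.47), both stress-responsive genes, were also highest there, with 3-factor clone 1 next at 2.84 and 5.24. Txnip, which restrains glucose uptake, was at 4.0 in ES and 3.72 in unselected MEF, and between -0.74 and 1.68 in the other 7 samples.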
